A study of Homo sapiens with 24 samples.

Results

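The genes described are 10 that are widely used to read out hypoxia signalling and glycolysis, namely HIF1A, SLC2A1, HK2, PFKFB3, LDHA, PDK1, VEGFA, BNIP3, NDRG1 and EGLN3. They were chosen by name, and each of the 10 symbols matched exactly 1 row among the 14585 genes of the deposited table. RNA was sequenced from 2 human cancer cell lines, A549 from a lung carcinoma and Huh7 from a hepatocellular carcinoma, which GEO's labels give as wild type. The authors describe p53 as wild type in A549 and mutant in Huh7. Each line was left as control or exposed to an extract of Pulsatilla chinensis, Bupleurum chinense or Polyporus umbellatus, giving 8 groups of 3 replicates and 24 libraries. The extracts were crude mixtures drawn with ethanol, freeze-dried and dissolved in DMSO. The concentration and time used for the sequenced cells, and what the control cells received, are not given in the sources used here. The labels do not say whether replicates were separate cultures, so the p-values measure the spread between these samples, which may be technical.

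Cells adjust to low oxygen mainly through hypoxia-inducible factors. The alpha subunit HIF-1α, encoded by HIF1A, is hydroxylated by prolyl hydroxylases while oxygen is plentiful, which marks it for destruction, so its control lies largely at the protein and is not read by RNA sequencing. When stabilised it pairs with ARNT, binds the core letters RCGTG in target promoters and raises glucose uptake (SLC2A1), glycolysis (HK2, PFKFB3), lactate production (LDHA), inhibition of pyruvate dehydrogenase (PDK1), blood vessel growth (VEGFA), mitophagy (BNIP3), the stress gene NDRG1 and the hydroxylase EGLN3, which acts back on HIF-1α. Many tumours run glycolysis at a high rate even with oxygen, and other factors such as MYC and p53 also act on several of these genes.

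RefSeq promoters (GRCh38.p14) were at hand for 8 of the 10 genes, VEGFA and NDRG1 being without an entry in the table used. The 250 bases before the start were searched on both strands for ACGTG and GCGTG, the letters that RCGTG stands for; a CACGTG holds ACGTG on each strand and counts 2 times. Either motif was present for 5 of the 8 genes (HIF1A, HK2, PFKFB3, LDHA and BNIP3), against 43.2% of the 35116 promoters in the table. SLC2A1, PDK1 and EGLN3 held neither motif in this window. The table held 2 promoters for each of HIF1A, HK2, PFKFB3, LDHA and PDK1, and only the first listed was searched. The 43.2% is a share of all promoters listed, and not of 1 per gene. The stretches of LDHA, HK2 and PFKFB3 are shown as the glycolytic enzymes among the 10 whose promoters hold the motifs, and that of BNIP3 as a motif-rich promoter whose gene passed the test with no herb. Capitals mark the motifs, or their reverse complements CACGT and CACGC, and each run reads along the strand of its gene.
LDHA, chr11:18394363-18394502, plus strand: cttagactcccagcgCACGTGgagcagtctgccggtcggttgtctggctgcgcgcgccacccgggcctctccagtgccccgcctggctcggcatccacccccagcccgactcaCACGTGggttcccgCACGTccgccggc
BNIP3, chr10:131982004-131982083, minus strand: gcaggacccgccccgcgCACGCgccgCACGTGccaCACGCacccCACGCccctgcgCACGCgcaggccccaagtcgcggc
HK2, chr2:74834047-74834096, plus strand: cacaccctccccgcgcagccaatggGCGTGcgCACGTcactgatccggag
PFKFB3, chr10:6144731-6144780, plus strand: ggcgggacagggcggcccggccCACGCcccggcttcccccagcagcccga
These matches describe letters and not occupied sites, and factor binding was not measured in these samples.

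Values are given as CPM, counts scaled to a common library size, with TMM factors set over all 24 libraries to correct for differences in library composition. Tests were fitted within each line on that line's own scale, and the ratio of CPM differed from the fitted change by a median of between -0.06 and 0.06 on the log2 scale, depending on the comparison. Library totals ranged from 6803648 to 24345364 estimated reads. The hepatocyte markers ALB, AFP, APOB, APOA1, TTR and FGB summed to 2.16 to 9.24 CPM in A549 libraries and 10860 to 22204 CPM in Huh7 libraries, and 5 genes abundant in A549 summed to 10563 to 14683 CPM in A549 and 164 to 269 CPM in Huh7. The Huh7 P. umbellatus libraries stood apart. Their reads came from genes with a mean GC content of 47.0%, 45.6% and 47.5% in replicates 1, 2 and 3, against 48.1 to 48.4% in the other Huh7 libraries, and their replicate 2 differed from replicates 1 and 3 by 13.4 and 17.8 times the sampling noise, against at most 5.39 times for any other pair. Calls of the 10 genes in comparisons with this group are followed in 2 other fits. These leave out replicate 2, or add an offset for GC content and transcript length. Values of the 10 genes that were not called are not all followed in this way. For the other genes named, each call that either of the 2 fits ends is given, but not each call that they add. In bulk RNA, fewer cells that express a gene and less of its RNA per cell cannot be told apart.

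In control cells the lines held these genes at very different levels (6 of the 10 were higher and 4 lower in A549 at an adjusted p under 0.05 with edgeR's quasi-likelihood test, where 33.8% of all 12924 genes tested were called higher and 34.9% lower, 68.7% in all). HK2, the inducible hexokinase that commits glucose to the cell, was at 190, 198 and 195 CPM in the Huh7 control replicates and at 1.74, 1.96 and 1.83 CPM in those of A549. The A549 level was 95.4-fold lower (log2 difference -6.58 ± 0.14 SE, n = 3 and 3, edgeR adjusted p = 3.57e-20). HK1, the constitutive hexokinase, had the reverse arrangement, with 67.3, 67.2 and 72.8 CPM in A549 and 0.354, 0.435 and 0.587 CPM in Huh7 controls. HK1 was thus the higher of the pair in A549 and HK2 in Huh7. EGLN3 was at 23.9 to 26.7 CPM in A549 controls, while the Huh7 controls held only 9, 1 and 4 estimated reads of it. The fitted EGLN3 difference was 6.03 ± 0.31 (SE, log2) and ran from 5.75 to 7.02 over the alternatives, since so few Huh7 reads leave it dependent on the method.

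PFKFB3, the enzyme that makes fructose-2,6-bisphosphate and so speeds phosphofructokinase, was the next most unequal gene, at 668 to 689 CPM in A549 and 75.6 to 77.4 CPM in Huh7 controls (8.96-fold higher in A549, adjusted p = 7.9e-21). LDHA, which turns pyruvate into lactate, was 2.77-fold higher in A549 (log2 1.47 ± 0.064 SE). Its paralog LDHB, whose product favours the reverse step, was at 511 to 641 CPM in A549 controls and had 0 estimated reads in each of the 12 Huh7 libraries. SLC2A1, HIF1A and NDRG1 were 1.98-fold, 1.90-fold and 1.48-fold higher in A549 controls. Beside HK2, another 3 genes went the other way, with VEGFA 1.79-fold, BNIP3 1.36-fold and PDK1 1.19-fold lower in A549. The differences of PDK1 and NDRG1 were the least stable. PDK1 lost its call when control replicate 1 or 2 of either line was left out (log2 -0.24 to -0.19, adjusted p 0.0611 to 0.120) and NDRG1 without A549 control replicate 2 (0.45, adjusted p = 0.0649). PDK1 was also not called with DESeq2 or RLE size factors (-0.21 with each) or with the GC and length offset (-0.12, adjusted p = 0.309). NDRG1 was not called with the replicate number as a block (0.45, adjusted p = 0.0987).

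Per kilobase of the canonical transcript, LDHA was the most abundant of the 10 in controls of each line, at 416 ± 8.43 CPM per kb in A549 and 153 ± 3.59 in Huh7 (SD, n = 3). The order behind it differed between the lines. In A549 it ran from PFKFB3 (151) and HIF1A (73.9) through BNIP3 (48.9), NDRG1 (19.1) and SLC2A1 (16.6) to VEGFA and EGLN3 (each 9.38), PDK1 (2.06) and HK2 (0.328). In Huh7 it ran from BNIP3 (67.7), HIF1A (39.4) and HK2 (34.6) through VEGFA and PFKFB3 (each 17.1), NDRG1 (13.1) and SLC2A1 (8.45) to PDK1 (2.48) and EGLN3 (0.0843). Neighbours whose replicate ranges overlapped, and which are not separated by these data, were VEGFA and EGLN3 in A549 and VEGFA and PFKFB3 in Huh7. The PDK1 level depends on its long canonical transcript of 14072 bases. Among the pyruvate dehydrogenase kinases, PDK3 led in each line, at 49.6 CPM per kb in A549 and 9.62 in Huh7, and PDK4 stood at 28.0 and 0.737.

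**Figure D1:**
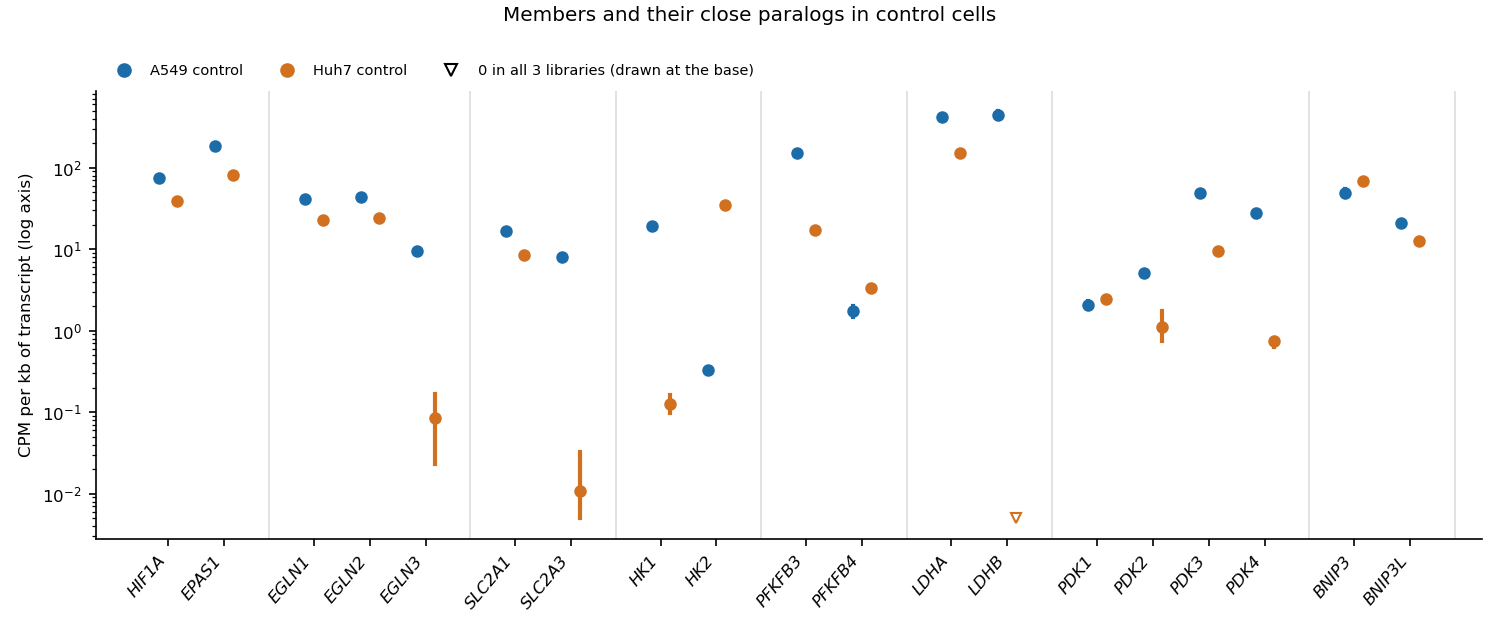
Mean CPM per kilobase of transcript (log axis, bars spanning the lowest to the highest of 3 replicates) in A549 and Huh7 control cells for 8 of the genes and their close paralogs. HK1 (19.2 in A549, 0.127 in Huh7) and HK2 (0.328 and 34.6) change places between the lines, EGLN3 and SLC2A3 sit near 0 in Huh7, and LDHB is at 0 there (open triangle drawn at the base of the axis).

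Against the control of the same line, the 10 genes in 3 herbs and 2 lines gave 60 comparisons, of which 20 passed an adjusted p of 0.05. Each of 8 genes passed at least once, and BNIP3 and EGLN3 never did. In A549 cells P. chinensis gave 1 gene higher and 3 lower (15.8% of all genes tested were called higher and 17.1% lower, 32.8% in all). B. chinense gave 2 higher and 3 lower there (13.1% and 15.0%, 28.1% in all), and P. umbellatus 2 higher and 1 lower (13.4% and 14.8%, 28.2% in all). In Huh7 cells P. chinensis gave 2 higher and 2 lower (10.5% and 10.5%, 20.9% in all). B. chinense gave 1 higher and 0 lower there (0.519% and 0.757%, 1.28% in all), and P. umbellatus 2 higher and 1 lower (19.3% and 17.8%, 37.0% in all). With 10 genes these counts are near the backgrounds or too small to be told from them. The 1 call with B. chinense in Huh7 was PFKFB3, and the 0 lower there by edgeR was also 0 at an unadjusted p under 0.05, with DESeq2 and with voom weights. Their median log2 change was between -0.08 and 0.04 in every one of the 6 comparisons, beside -0.01 to 0.03 for all genes. No herb moved the 10 genes together in 1 direction. Within a line all 3 herbs were set against the same controls, so those comparisons are not independent of each other.

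**Figure D2:**
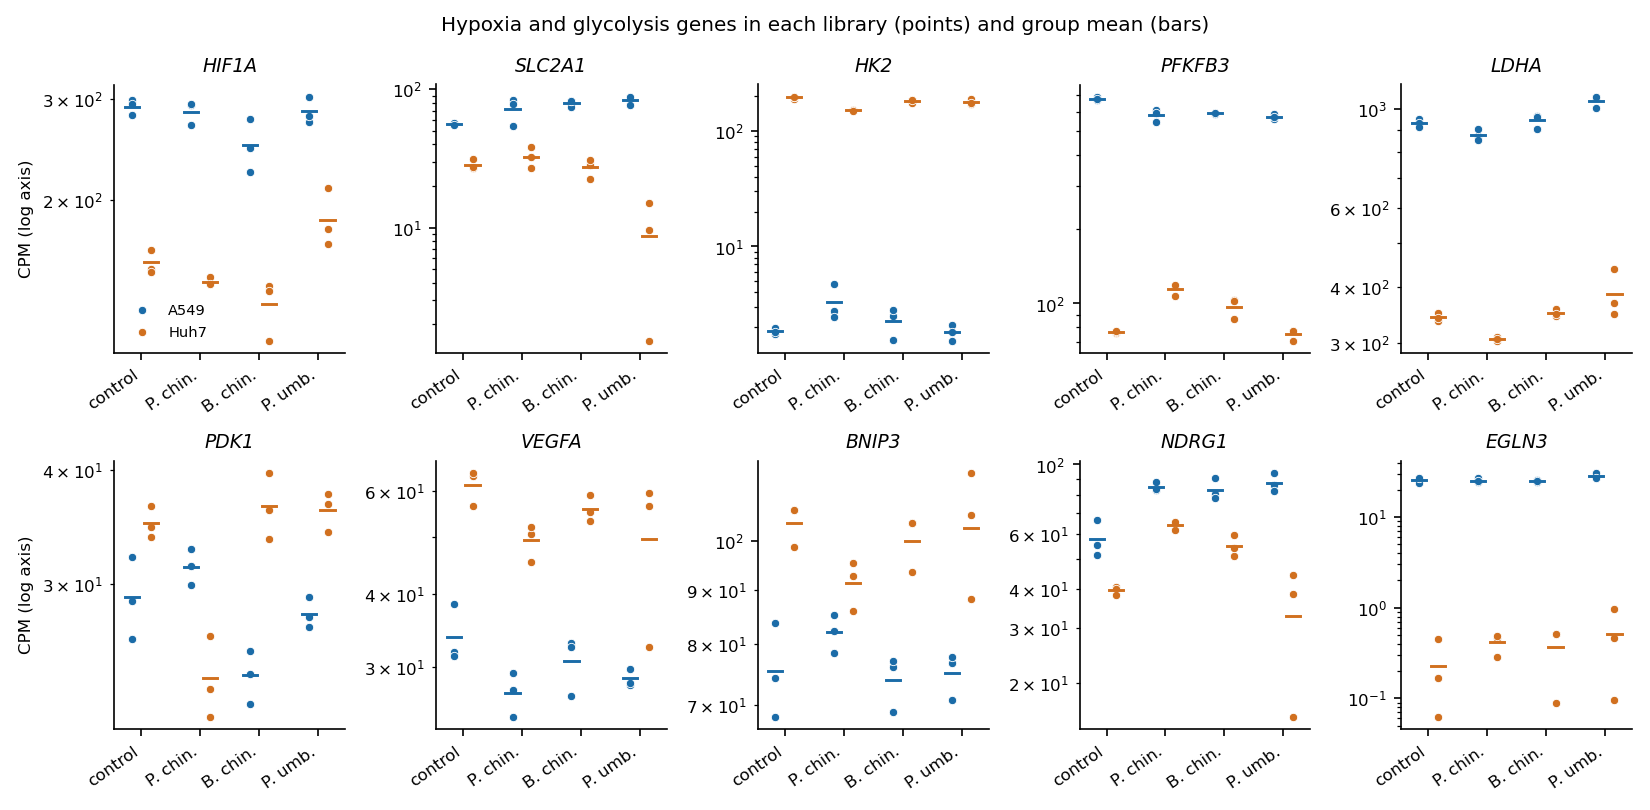
CPM (log axis, a separate range for each gene) of the 10 genes in each of the 24 libraries, by group, with points for the 3 replicates and a bar for the group mean. PFKFB3 lies lower than control in every treated A549 library and higher in every P. chinensis and B. chinense Huh7 library, and SLC2A1 drops to between 1.52 and 15 CPM in the Huh7 P. umbellatus libraries.

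HIF1A (ENSG00000100644, chr14:61695513-61748259, plus strand) fell modestly in A549 cells with B. chinense. It was at 299, 294 and 282 CPM in the A549 controls and at 277, 247 and 224 CPM with B. chinense. All 3 treated replicates lay under the lowest control, and the change was -0.26 ± 0.064 (log2, SE, n = 3 and 3, edgeR adjusted p = 0.00729). P. chinensis (293, 294 and 270 CPM) and P. umbellatus (303, 274 and 281 CPM) overlapped the controls, with changes of -0.06 and -0.09 that were not called. In Huh7 cells the controls stood at 164, 152 and 150 CPM, P. chinensis at 143, 147 and 143, B. chinense at 114, 142 and 139 and P. umbellatus at 178, 210 and 168. The P. umbellatus replicates lay above all controls, with a called change of 0.31 ± 0.10 (adjusted p = 0.0324), while B. chinense (-0.22, adjusted p = 0.408) and P. chinensis (-0.05) were not called.

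That HIF1A call in Huh7 was lost with the GC offset. The HIF1A transcript is 39.4% GC, and with the offset for GC content and length the change was -0.02 ± 0.069 (adjusted p = 0.877). Without P. umbellatus replicate 2, the library with the highest HIF1A and the lowest GC content, it was 0.20 (adjusted p = 0.0834). The call was also lost on leaving out P. chinensis replicate 1 or 2, B. chinense replicate 3 or control replicate 2 or 3 (changes between 0.20 and 0.28, adjusted p up to 0.121).

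EGLN3 (ENSG00000129521, chr14:33924227-34462774, minus strand), a prolyl hydroxylase that hypoxia induces, stayed between 23.9 and 30.5 CPM in all 12 A549 libraries. The controls were at 25.6, 23.9 and 26.7 CPM and the P. umbellatus replicates at 27.9, 30.5 and 27.3 CPM. All 3 of the latter lay above the controls, but the change of 0.11 ± 0.091 was not called (adjusted p = 0.427), nor were those of -0.04 with P. chinensis and -0.06 with B. chinense. In Huh7 the 12 libraries held between 1 and 12 estimated reads of EGLN3, so that no change could be read at this depth. Its relatives were better measured. EGLN1, the main oxygen sensor of the family, fell in A549 with each herb, from 186, 174 and 182 CPM in controls to between 127 and 145 CPM in the 9 treated libraries (log2 -0.46 ± 0.056, -0.49 ± 0.056 and -0.44 ± 0.055 for P. chinensis, B. chinense and P. umbellatus, adjusted p at most 3.7e-05). EGLN1 passed in no Huh7 comparison, with values between 0.05 and 0.18, and its response differed between the lines by -0.50, -0.50 and -0.53 (adjusted p at most 0.000616). The last of these was -0.55 without Huh7 P. umbellatus replicate 2 and -0.42 with the offset, called in each. EGLN2 also fell in A549, by 0.24 to 0.25 on the log2 scale with the 3 herbs. In Huh7 EGLN2 fell with P. umbellatus (-0.59 ± 0.15, adjusted p = 0.0114, and -0.39 without replicate 2) but was at 0.16 and not called with the GC and length offset (adjusted p = 0.137), nor was it called with only the groups compared (-0.63, adjusted p = 0.0828). EPAS1, the alpha subunit of HIF-2, was more abundant than HIF1A per kilobase in each line's controls (183 and 82.4 against 73.9 and 39.4 CPM per kb). It fell by 0.26, 0.26 and 0.28 in A549, with Huh7 values between -0.04 and 0.06 that were not called. With P. umbellatus in Huh7 EPAS1 was called at 0.15 with the GC and length offset (adjusted p = 0.027).

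SLC2A1 (ENSG00000117394, chr1:42925353-42958893, minus strand) encodes the basal glucose transporter GLUT1 and gave the largest change among the 10 genes. In Huh7 cells its control replicates were at 26.8, 27.6 and 31.4 CPM and those of P. umbellatus at 1.52, 9.59 and 15 CPM, the lowest resting on 13 estimated reads. All 3 treated replicates lay well under the controls although they differed widely among themselves. SLC2A1 fell 3.09-fold (log2 -1.63 ± 0.43 SE, n = 3 and 3, adjusted p = 0.0125). Its size depended on single replicates, at -1.14 without P. umbellatus replicate 1, -1.67 without replicate 2 and -2.33 without replicate 3, and the call held in each of these. With the GC and length offset it was -1.49 ± 0.41 (adjusted p = 0.0229), and with voom sample weights -3.10 (adjusted p = 0.00171). The call was lost when only the P. umbellatus and control libraries were fitted (-1.67, adjusted p = 0.0888). P. chinensis (27.1, 32.5 and 38.1 CPM) and B. chinense (28.6, 22.5 and 31 CPM) overlapped the Huh7 controls and were not called.

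In A549 cells SLC2A1 went the other way. Its controls were tightly placed at 56.3, 57.1 and 55.0 CPM, with B. chinense at 74.3, 82.1 and 82.6 and P. umbellatus at 85.0, 88.6 and 76.7 CPM. Every replicate of these 2 herbs lay above every control. SLC2A1 rose 1.38-fold with B. chinense (log2 0.47 ± 0.12, adjusted p = 0.0103) and 1.43-fold with P. umbellatus (0.51 ± 0.12, adjusted p = 0.00518), and each call held under all the alternatives run. With P. chinensis 2 replicates were as high (83.2 and 79.1 CPM) and replicate 3 was at the control level (54.1 CPM). That change of 0.33 was not called (adjusted p = 0.0536), and it was called at 0.49 without replicate 3 (adjusted p = 0.000379). SLC2A3, the high-affinity neuronal-type transporter, moved opposite to SLC2A1 in A549. It fell from 27.6, 32.5 and 32.0 CPM to between 6.87 and 18.8 CPM in the 9 treated libraries, by 1.70 on the log2 scale with P. umbellatus, 1.48 with B. chinense and 0.93 with P. chinensis. Huh7 cells held at most 17 estimated reads of SLC2A3 in any library.

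HK2 (ENSG00000159399, chr2:74834127-74893359, plus strand) fell in Huh7 cells, where it is abundant, with P. chinensis. Controls were at 190, 198 and 195 CPM and P. chinensis replicates at 152, 153 and 148 CPM. The groups did not overlap, and the change was -0.31 ± 0.061 (log2, adjusted p = 0.00388), called under all the alternatives run. B. chinense (187, 176 and 186 CPM, change -0.07) and P. umbellatus (189, 170 and 174 CPM, change -0.08) lay slightly under the controls and were not called. In A549 HK2 rested on 12 to 51 estimated reads a library. P. chinensis replicates were at 2.74, 2.45 and 4.74 CPM, all above the controls and the third far above the others, and the change of 0.76 ± 0.33 was not called (adjusted p = 0.0911). HK1, the more abundant of the pair in A549, rose there with each herb, from 67.2 to 72.8 CPM in controls to between 92.8 and 110 CPM (log2 0.57 ± 0.060, 0.53 ± 0.060 and 0.41 ± 0.060, adjusted p at most 0.000123).

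PFKFB3 (ENSG00000170525, chr10:6144934-6254644, plus strand) fell in A549 cells with all 3 herbs and rose in Huh7 cells with 2 of them. The A549 controls were at 668, 689 and 674 CPM. P. chinensis replicates were at 608, 589 and 545, B. chinense at 590, 585 and 590 and P. umbellatus at 588, 557 and 568 CPM. No treated A549 library reached the lowest control. The falls were 1.19-fold, 1.18-fold and 1.24-fold (log2 -0.25, -0.24 and -0.31, each ± 0.041 SE, adjusted p = 0.000245, 0.000525 and 5.93e-05), and each was called under all the alternatives run. In Huh7 the controls lay at 75.6, 76.7 and 77.4 CPM, P. chinensis at 118, 107 and 119 and B. chinense at 103, 86.5 and 102 CPM. These 2 groups lay wholly above the controls, while P. umbellatus at 77.7, 70.7 and 77.2 CPM overlapped them. PFKFB3 rose 1.56-fold with P. chinensis (0.64 ± 0.078, adjusted p = 0.000135) and 1.29-fold with B. chinense (0.36 ± 0.079, adjusted p = 0.0472).

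The B. chinense rise of PFKFB3 in Huh7 sat close to the threshold. It was lost on leaving out any P. chinensis or control replicate or B. chinense replicate 1 or 3 (changes 0.32 to 0.37, adjusted p 0.0764 to 0.196). With P. umbellatus in Huh7 the PFKFB3 value of 0.03 became 0.28 ± 0.076 with the GC and length offset (adjusted p = 0.020), the transcript being 55.6% GC. PFKFB4, the isoenzyme that hypoxia also induces, was called in the opposite direction to PFKFB3 where both were called. It rose in A549 with P. chinensis (0.69) and P. umbellatus (0.56) and fell in Huh7 with the same herbs (log2 -1.0 and -0.89), from 10.7, 12.2 and 12.1 CPM in controls to 5.98, 5.70 and 4.88 CPM with P. chinensis and 5.86, 5.42 and 6.66 CPM with P. umbellatus. The P. umbellatus value of PFKFB4 in Huh7 stayed called without replicate 2 (-0.83) and with the offset (-0.60). The B. chinense values of PFKFB4 (0.36 in A549 and -0.29 in Huh7) were not called.

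LDHA (ENSG00000134333, chr11:18394560-18408425, plus strand) changed by small amounts. In A549 its controls were at 951, 929 and 914 CPM, P. chinensis at 870, 904 and 853, B. chinense at 901, 966 and 962 and P. umbellatus at 1059, 1008 and 1066 CPM. The P. chinensis replicates lay under and the P. umbellatus replicates above all controls, by margins small beside the level. The P. chinensis fall of 0.12 on the log2 scale (SE 0.044) just passed (adjusted p = 0.0483), and the P. umbellatus value of 0.10 did not (adjusted p = 0.0946). The former was lost without any single P. chinensis or control replicate, B. chinense replicate 2 or P. umbellatus replicate 1 or 3 (-0.14 to -0.10, adjusted p 0.0542 to 0.152), and it kept its call in only 2 of the 8 other settings.

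In Huh7 the LDHA controls were at 350, 335 and 341 CPM, P. chinensis at 303, 309 and 306, B. chinense at 344, 356 and 347 and P. umbellatus at 348, 439 and 368 CPM. P. umbellatus replicate 2 stood clear of the other libraries, and replicate 1 lay within the control range. LDHA rose with P. umbellatus by 0.23 ± 0.078 (adjusted p = 0.0379). Its transcript is 41.8% GC, and the value was 0.02 (adjusted p = 0.725) with the GC and length offset and 0.12 (adjusted p = 0.0421) without replicate 2. The call was also lost on leaving out any control, P. chinensis or B. chinense replicate (0.18 to 0.24, adjusted p up to 0.151). The P. chinensis replicates lay under all controls in Huh7, but that LDHA change of -0.10 was not called. It was called at the same size without P. umbellatus replicate 2 (adjusted p = 0.0476), and it was also called as a fall with the GC and length offset.

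PDK1 (ENSG00000152256, chr2:172555373-172608669, plus strand), a kinase that inhibits pyruvate dehydrogenase, fell in Huh7 with P. chinensis. The Huh7 controls were at 34.6, 36.5 and 33.8 CPM and P. chinensis at 26.3, 23.0 and 21.4 CPM. No replicate of the 2 groups overlapped, and the fall was 1.42-fold (log2 -0.50 ± 0.099, adjusted p = 0.00342), called under all the alternatives run. B. chinense (39.7, 36.2 and 33.6 CPM) and P. umbellatus (36.7, 34.2 and 37.7 CPM) overlapped the controls, with changes of 0.08 and 0.11. In A549 the controls spread from 26.1 and 28.7 to 32.1 CPM, and B. chinense at 25.3, 23.9 and 22.1 CPM lay under all of them. PDK1 fell there by 0.32 (SE 0.098, adjusted p = 0.025), a call lost without B. chinense or control replicate 2 or 3 (-0.33 to -0.24, adjusted p 0.0501 to 0.115). P. chinensis (0.08) and P. umbellatus (-0.12) were not called in A549.

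Other regulators of pyruvate dehydrogenase also moved. PDK4, the kinase induced by fasting, fell in A549 with P. chinensis (-0.67 ± 0.12) and P. umbellatus (-0.60 ± 0.11) and rose in Huh7 with the same herbs (1.07 ± 0.21 and 0.77 ± 0.22), where it stayed low, at 2.30 to 2.94 CPM in controls and 3.75 to 6.44 CPM with those herbs. The P. umbellatus value of PDK4 in Huh7 was not called without replicate 2 (0.56, adjusted p = 0.0668) or with the offset (0.46, adjusted p = 0.118). PDP1, the phosphatase that switches the enzyme back on, rose in A549 with each herb (1.09, 0.95 and 0.89 in the order used so far) and in Huh7 with P. chinensis and P. umbellatus (0.79 and 0.47). The P. umbellatus value of PDP1 in Huh7 was 0.37 without replicate 2 (adjusted p = 0.0498) and 0.17 with the offset, where it was not called (adjusted p = 0.346). PDK3 fell with P. chinensis in each line, by 0.35 in A549 and 0.32 in Huh7. PDK2 passed in 1 of the 6 comparisons, falling in Huh7 with P. umbellatus (-1.59 ± 0.47, adjusted p = 0.0209). That call was lost without replicate 2 (-1.28, adjusted p = 0.0591) and with the offset (-1.18, adjusted p = 0.0805).

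VEGFA (ENSG00000112715, chr6:43770184-43786487, plus strand), the main angiogenic growth factor, had a lower mean than control in all 6 treated groups but passed in 1 of them. In A549 the controls were at 38.5, 31.8 and 31.3 CPM, P. chinensis at 24.6, 27.4 and 29.3, B. chinense at 33.0, 32.4 and 26.7 and P. umbellatus at 29.8, 27.9 and 28.2 CPM. The P. chinensis and P. umbellatus replicates lay under all controls, of which replicate 1 was the highest. VEGFA fell with P. chinensis (-0.34 ± 0.11, adjusted p = 0.0298), a call lost without control replicate 1 or P. chinensis replicate 1 or 2 (-0.34 to -0.24, adjusted p 0.0701 to 0.135). The P. umbellatus value of -0.29 missed (adjusted p = 0.0636), as did that of B. chinense (-0.17). In Huh7 the controls were at 63.8, 56.5 and 64.4 CPM and P. chinensis at 50.7, 45.3 and 52.1 CPM, again without overlap. That change of -0.26 ± 0.16 was not called (adjusted p = 0.296). It was called at the same size without P. umbellatus replicate 2 (adjusted p = 0.0119), whose VEGFA of 32.5 CPM, against 56.6 and 59.5 CPM in its fellow replicates, enters the spread estimated over the Huh7 groups.

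BNIP3 (ENSG00000176171, chr10:131967684-131981967, minus strand), a receptor that sends mitochondria to autophagy, was called with no herb. Its A549 controls spread from 68.2 to 83.7 CPM and the 9 treated libraries from 68.9 to 85.1 CPM, which overlap almost fully, with changes of 0.09, -0.07 and -0.07. In Huh7 the controls were at 98.8, 107 and 107 CPM and P. chinensis at 85.9, 95.5 and 92.8 CPM, the groups not overlapping. That change of -0.13 ± 0.092 was not called (adjusted p = 0.350), and it was called at -0.22 with the GC and length offset. Its relative BNIP3L rose in A549 with each herb (0.45, 0.28 and 0.34) and had Huh7 values between -0.01 and 0.21 that were not called.

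NDRG1 (ENSG00000104419, chr8:133237175-133302022, minus strand), a stress-responsive gene that hypoxia, iron depletion and p53 are each known to induce, rose in A549 with every herb. Controls were at 55.5, 66.6 and 51.5 CPM, P. chinensis at 82.9, 83.4 and 87.8, B. chinense at 80.4, 78.0 and 90.3 and P. umbellatus at 93.8, 86.0 and 82.2 CPM. The 9 treated libraries all lay above the highest control. The rises were 1.43-fold, 1.39-fold and 1.45-fold (log2 0.52 ± 0.092, 0.48 ± 0.093 and 0.53 ± 0.091, adjusted p = 0.000545, 0.00145 and 0.00053), and each was called under all the alternatives run.

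In Huh7 NDRG1 also rose with P. chinensis, from 40.7, 40.1 and 38.2 CPM to 64.9, 61.7 and 65.6 CPM, by 0.75 ± 0.24 (adjusted p = 0.0408). B. chinense replicates lay above all controls too, at 59.5, 51.2 and 54.3 CPM, but that change of 0.49 ± 0.24 was not called (adjusted p = 0.451). P. umbellatus replicates were at 38.7, 15.6 and 44.5 CPM, replicate 2 being far under the others. Without that replicate the B. chinense change kept its size and was called (0.49, adjusted p = 0.00145), and the P. umbellatus change went from -0.20 to 0.12, called in neither case. The P. chinensis call was lost on leaving out any control, P. chinensis or B. chinense replicate (0.72 to 0.77, adjusted p 0.0665 to 0.124) and held without any of the P. umbellatus replicates.

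**Figure D3:**
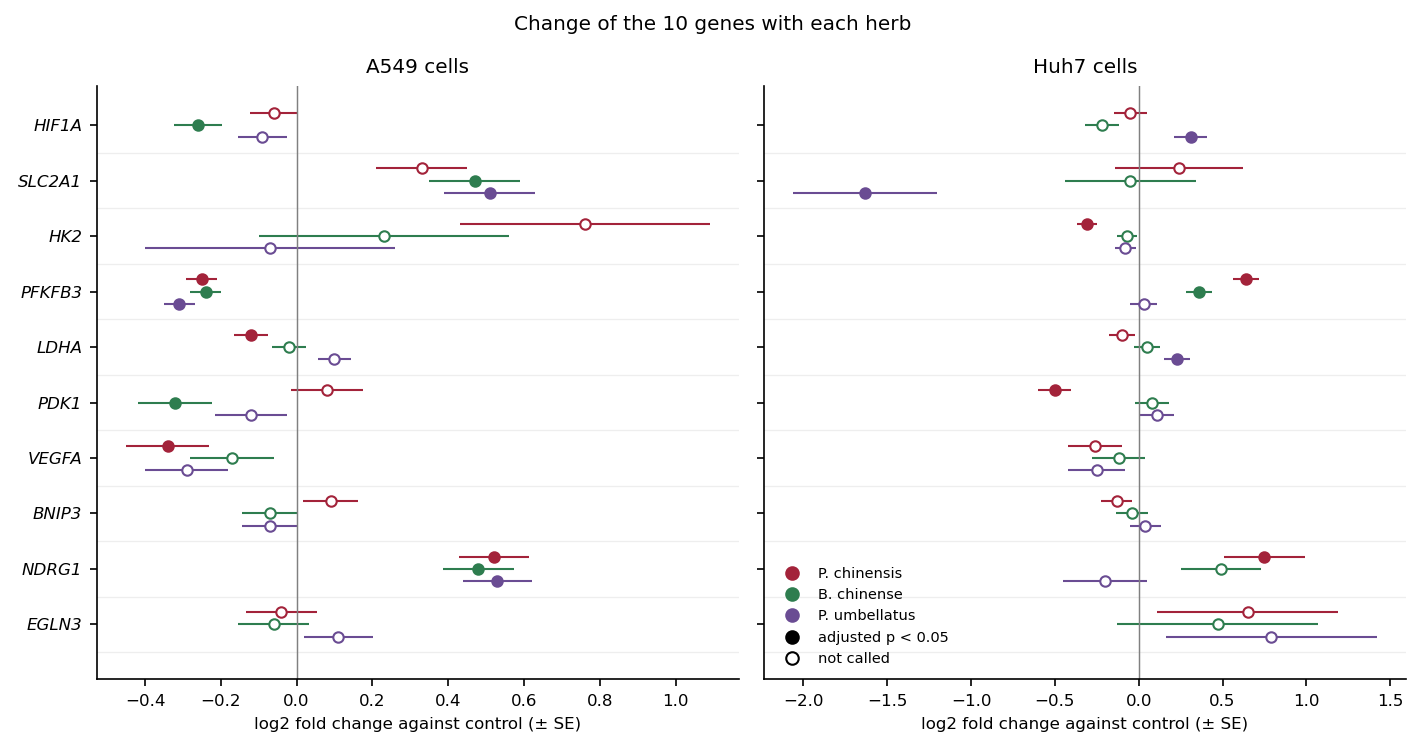
Log2 fold change against the control of the same line for the 10 genes and 3 herbs, with bars for 1 SE and filled points for an adjusted p under 0.05 (the 2 panels have different horizontal ranges). NDRG1 is higher and PFKFB3 lower with all 3 herbs in A549, and in Huh7 the SLC2A1 value of -1.63 with P. umbellatus lies farthest from 0.

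The P. umbellatus changes in Huh7 are set out under the 3 fits because these libraries stood apart. Of the 3 genes called with all 12 libraries, SLC2A1 was called in each fit, LDHA without replicate 2 but not with the offset, and HIF1A in neither. The background itself moved, with 37.0% of all genes called in the fit of all libraries, 32.9% without replicate 2 and 19.7% with the offset. The count among the 10 genes was 3 in the first of these fits and 2 in each of the others.

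**Figure D4:**
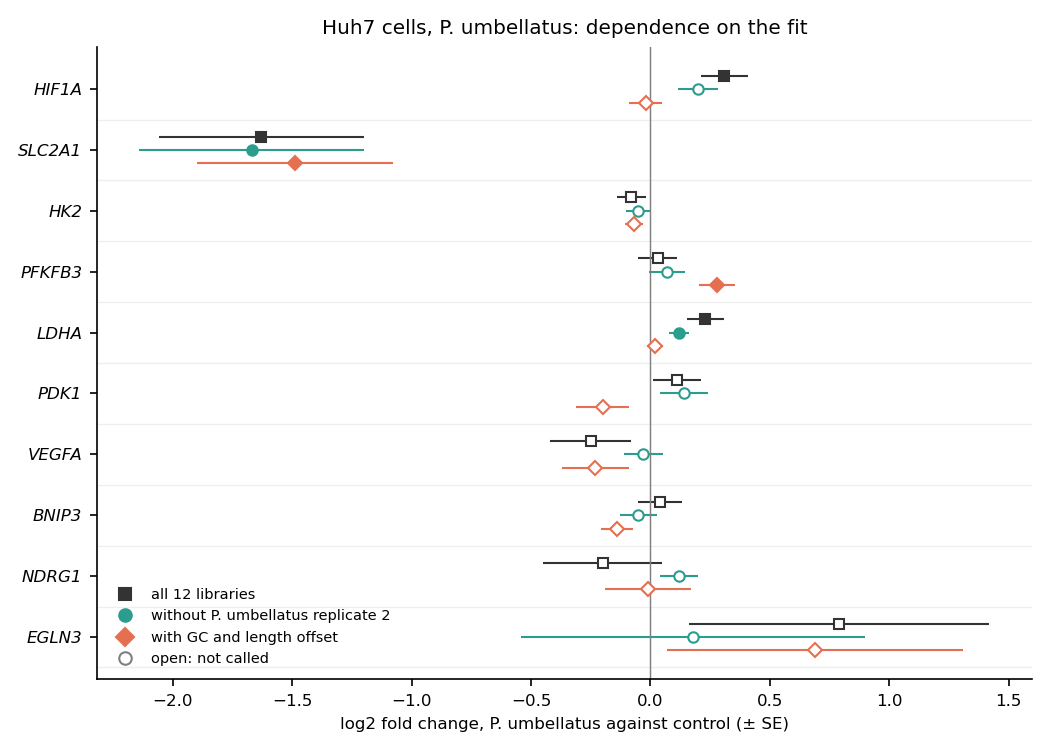
Log2 fold change (± 1 SE) of the 10 genes in Huh7 cells with P. umbellatus against control, fitted with all 12 Huh7 libraries (squares), without P. umbellatus replicate 2 (circles) and with an offset for GC content and transcript length (diamonds), open where the adjusted p was not under 0.05. SLC2A1 stays between -1.67 and -1.49 while HIF1A goes from 0.31 to -0.02 and LDHA from 0.23 to 0.02.

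The question whether P. chinensis acted on these genes differently from the other herbs was tested by setting it against the mean of B. chinense and P. umbellatus within each line. In A549 LDHA alone was called (-0.16 ± 0.038, adjusted p = 0.0305), so that 0 genes were higher and 1 lower where 1.15% of all genes were called higher and 2.42% lower (3.57% in all). At an unadjusted p under 0.05 edgeR had 3 higher, while DESeq2 and voom weights called 0. The LDHA call was lost without any P. chinensis replicate, B. chinense replicate 2 or 3 or P. umbellatus replicate 3 (-0.18 to -0.15, adjusted p up to 0.154). Huh7 had 2 genes higher and 3 lower (9.69% and 12.1% of all genes, 21.8% in all). PFKFB3 was higher with P. chinensis than with the other herbs (0.44 ± 0.067, adjusted p = 0.000982) and PDK1 was lower (-0.60 ± 0.089, adjusted p = 0.000884). HK2 (-0.23, lost without P. chinensis replicate 3 at an adjusted p of 0.0622) and LDHA (-0.24, lost without any P. chinensis replicate at an adjusted p of 0.0668 to 0.0935) were lower too. SLC2A1 was higher by 1.08 (adjusted p = 0.0392), a difference that rests on its low P. umbellatus libraries. That call was lost without any control, P. chinensis or B. chinense replicate (0.96 to 1.19, adjusted p up to 0.151). It was also lost with DESeq2 and with only the groups compared. PFKFB3, PDK1, HK2, LDHA and SLC2A1 each kept the call without P. umbellatus replicate 2 and with the GC and length offset. NDRG1 missed at 0.60 (adjusted p = 0.0508) and passed without any of the P. umbellatus replicates (0.44 to 0.73, adjusted p at most 0.0434).

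Whether the lines responded differently was tested directly, as the change in A549 minus the change in Huh7 in a model of all 24 libraries. Of the 10 genes, 2 had a higher and 1 a lower response in A549 with P. chinensis (10.3% and 9.30% of all genes, 19.6% in all), 0 and 1 with B. chinense (5.80% and 5.80%, 11.6% in all) and 2 and 1 with P. umbellatus (19.1% and 15.3%, 34.4% in all). The 0 higher with B. chinense by edgeR was 0 at an unadjusted p under 0.05, with DESeq2 and with voom weights. PFKFB3 differed with every herb, by -0.84 ± 0.084 with P. chinensis (adjusted p = 2.67e-07), -0.56 ± 0.085 with B. chinense (adjusted p = 0.000108) and -0.26 ± 0.085 with P. umbellatus (adjusted p = 0.0252). The last of these was lost without A549 P. umbellatus replicate 2 (-0.24, adjusted p = 0.0536). With P. chinensis the responses of PDK1 (0.64 ± 0.13, adjusted p = 0.0014) and HK2 (1.14 ± 0.23, adjusted p = 0.00104) also differed. Each was lower than control in Huh7 and not called in A549, where HK2 has few reads. The HK2 SE is smaller than the 0.33 of its A549 change alone, as this model estimates the spread of a gene over both lines together. With P. umbellatus SLC2A1 differed by 2.21 ± 0.42 (adjusted p = 0.000499), having risen in A549 and fallen in Huh7, and NDRG1 by 0.81 ± 0.27 (adjusted p = 0.025).

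The NDRG1 difference was lost with the GC and length offset (0.54) and without A549 control replicate 3, A549 P. umbellatus replicate 1 or Huh7 control replicate 1 or 2 (0.73 to 0.76, adjusted p up to 0.0601). HIF1A with P. umbellatus missed narrowly at -0.31 (adjusted p = 0.0544), and it was called at -0.44 to -0.31 on leaving out any of 11 libraries, namely A549 B. chinense replicate 1 or 3, Huh7 control replicate 1, Huh7 P. umbellatus replicate 1 or 3 or any Huh7 P. chinensis or B. chinense replicate. EGLN3 with P. umbellatus passed only without Huh7 P. umbellatus replicate 3 (-1.04, adjusted p = 0.0496), on the few Huh7 reads already described. VEGFA, LDHA and BNIP3 gave differences between -0.04 and 0.27 that were not called with any herb.

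**Figure D5:**
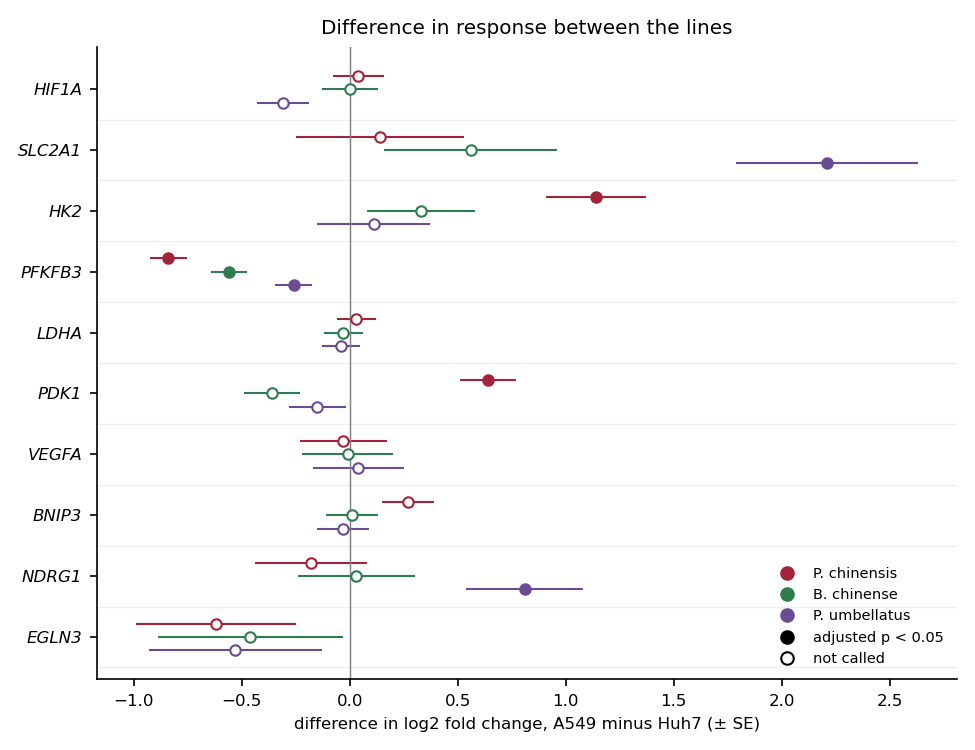
Difference in log2 fold change against control between the lines, A549 minus Huh7 (± 1 SE), for each gene and herb, filled where the adjusted p was under 0.05. PFKFB3 is under 0 with all 3 herbs (-0.84, -0.56 and -0.26), while SLC2A1 with P. umbellatus (2.21) and HK2 with P. chinensis (1.14) lie farthest above it.

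Around the 10 genes, 4 lists of the same pathways were counted. Of 17 regulators of the HIF pathway tested in A549, P. chinensis gave 5 higher and 4 lower, B. chinense 1 and 4 and P. umbellatus 2 and 4, so that 9, 5 and 6 of the 17 passed where 32.8%, 28.1% and 28.2% of all genes did. CITED2, which competes with HIF-1α for a coactivator, rose with P. chinensis in each line (1.0 ± 0.22 in A549 and 0.58 ± 0.068 in Huh7). TXNIP, a brake on glucose uptake, rose with P. chinensis by 1.78 ± 0.51 in A549 and 1.65 ± 0.13 in Huh7. In controls TXNIP was 27.9-fold lower in A549 than in Huh7, and its A549 change has the wider SE. Of the 16 regulators tested in Huh7, 3 were higher and 1 lower with P. chinensis, 0 and 0 with B. chinense by edgeR (2 and 1 at an unadjusted p under 0.05, and 2 and 0 with DESeq2 or voom weights), and 2 were higher and 2 lower with P. umbellatus. The shares of all genes called in Huh7 were 20.9%, 1.28% and 37.0% in the same order. Without P. umbellatus replicate 2 these shares became 34.9%, 6.57% and 32.9%, and the regulators called were 4 higher and 3 lower, 2 and 0, and 2 and 2. With the GC and length offset the shares were 32.5%, 6.12% and 19.7%, and the regulators called were 6 and 1, 2 and 0, and 2 and 2.

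Among glucose and lactate transporters and glycolytic enzymes beyond the 10 genes, 24 were tested in A549, where P. chinensis gave 6 higher and 9 lower, B. chinense 4 and 7 and P. umbellatus 5 and 4 (15, 11 and 9 of the 24, beside the 32.8%, 28.1% and 28.2% of all genes). TIGAR, a p53 target that lowers fructose-2,6-bisphosphate and so opposes PFKFB3, rose by 1.25 ± 0.059, 1.08 ± 0.059 and 1.05 ± 0.058 with the 3 herbs in A549 and by 0.32 and 0.45 in Huh7 with P. chinensis and P. umbellatus. The P. umbellatus value of TIGAR in Huh7 was 0.34 without replicate 2 and still called, and 0.17 and not called with the offset (adjusted p = 0.135). In Huh7, 25 were tested, with 4 higher and 7 lower with P. chinensis, 0 higher and 1 lower with B. chinense (1 was higher at an unadjusted p under 0.05 in edgeR, 0 with DESeq2 and 0 with voom weights) and 2 higher and 10 lower with P. umbellatus. Without Huh7 P. umbellatus replicate 2, which enters the spread of every Huh7 group, the P. chinensis counts became 4 and 11, those of B. chinense 0 and 5 and those of P. umbellatus 3 and 10, as the shares of all genes went to 34.9%, 6.57% and 32.9%. With the offset they were 4 and 9, 0 and 4, and 2 and 9, beside 32.5%, 6.12% and 19.7% of all genes. The P. umbellatus median of -0.30 was -0.11 without replicate 2 and 0.00 with the GC and length offset. SLC2A2, the liver glucose transporter, fell in Huh7 with P. chinensis (-1.25 ± 0.28) and B. chinense (-1.36 ± 0.29), and the enolase ENO2 rose with P. chinensis (1.17 ± 0.22). With P. umbellatus SLC2A2 was at -0.67 and not called, and it was called at -0.98 with the offset (adjusted p = 0.0342).

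The 12 subunits and regulators of pyruvate dehydrogenase beside PDK1 were all tested in A549, where P. chinensis gave 2 higher and 7 lower (median -0.28), B. chinense 2 and 4 (median -0.12) and P. umbellatus 1 and 5 (median -0.22), beside 32.8%, 28.1% and 28.2% of all genes called. With the GC and length offset these were 2 and 7 (median -0.22), 2 and 2 (median -0.06) and 1 and 3 (median -0.13). In Huh7 P. chinensis gave 2 higher and 3 lower, P. umbellatus 2 and 2 and B. chinense 0 and 0 (2 and 4, 1 and 1, and 1 and 0 without P. umbellatus replicate 2). With the offset P. chinensis gave 2 and 5, P. umbellatus 0 and 4 and B. chinense 1 and 1, and the P. umbellatus median went from 0.03 to -0.15. All-gene shares for these 3 settings in Huh7 are those given above for the HIF regulators. The 0 and 0 with B. chinense by edgeR were 3 and 1 at an unadjusted p under 0.05, 0 and 1 with DESeq2 and 2 and 1 with voom weights. Of 23 other hypoxia-induced genes tested in A549, P. chinensis gave 10 higher and 4 lower (median 0.26, all genes 0.01), B. chinense 7 and 3 (median 0.07) and P. umbellatus 8 and 3 (median 0.04), beside the same all-gene shares of 32.8%, 28.1% and 28.2%. CA9, a carbonic anhydrase that is a classical HIF-1 target and was named after its values were seen, fell in A549 with each herb, by 1.30, 1.80 and 1.81 on the log2 scale (adjusted p at most 0.00417), from 4.42 to 5.68 CPM in controls to 0.885 to 2.27 CPM, or 6 to 21 estimated reads, in the treated libraries. The histone demethylase KDM4B rose there by 0.88, 0.80 and 0.76 on the log2 scale. In Huh7, P. chinensis gave 7 of 24 higher and 7 lower, B. chinense 1 and 1 and P. umbellatus 3 and 5, and without P. umbellatus replicate 2 these were 7 and 8, 3 and 3, and 5 and 6, beside 34.9%, 6.57% and 32.9% of all genes. With the offset they were 7 and 8, 1 and 3, and 3 and 5, and the P. umbellatus median went from 0.10 to -0.15. With P. chinensis in Huh7 LOX, which crosslinks collagen, fell (-1.23 ± 0.11) and the transcriptional repressor BHLHE40 rose (1.10 ± 0.093). With P. umbellatus there LOX was at -0.14 and not called, and it was called without replicate 2 (-0.30) and with the offset (-0.46). BHLHE40 was at 0.24 and not called, and it was called without replicate 2 (0.34) but not with the offset (0.21).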

How the data were processed

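Libraries were made, per the labels, from total RNA with a stranded, ribosomal RNA depleting kit. The authors deposited a table of estimated counts per gene, made with kallisto on GRCh38.p13 transcripts and holding whole numbers for protein-coding genes; how transcripts were summed and rounded is not given in the sources used here. One of the 14585 genes had no match in GENCODE v44 and was left out. Genes with a mean count above 5 over the 12 libraries of a line were tested (13633 in A549, 13875 in Huh7, 12924 in both) with edgeR 4.0.16 in R 4.3.3 (TMM, quasi-likelihood F test, prior count 2, 1 coefficient per group, Benjamini-Hochberg adjustment over all genes tested); a gene was called at an adjusted p under 0.05. SE is the log2 change over the square root of F. The genes and lists were chosen with earlier results of these data known. Beside the 10 genes and the paralogs, 2 genes per list and line were named. These had the largest change among those called with P. chinensis at a mean of at least 50 counts over the line. A gene that this rule names is not reported here. Alternatives were DESeq2 1.42.0, RLE factors, no filter, a mean of at least 50 counts, only the groups compared, limma 3.58.1 voom weights, a replicate block, a loess offset (span 0.3) for GC content and transcript length, and each library left out.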

Additional observations from a re-analysis of the deposited data

Results flagged for a closer look

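The response to a herb differed between the lines, as tested by the interaction in the model of all 24 libraries (A549 change minus Huh7 change, log2), for 7 combinations of gene and herb. With P. chinensis these were HK2 at 1.14 (adjusted p = 0.00104), PFKFB3 at -0.84 (adjusted p = 2.67e-07) and PDK1 at 0.64 (adjusted p = 0.0014). With B. chinense it was PFKFB3 at -0.56 (adjusted p = 0.000108). With P. umbellatus they were SLC2A1 at 2.21 (adjusted p = 0.000499), PFKFB3 at -0.26 (adjusted p = 0.0252) and NDRG1 at 0.81 (adjusted p = 0.025). All 3 values with P. umbellatus use the Huh7 libraries that stood apart in GC content. Without Huh7 P. umbellatus replicate 2 each of these 3 stayed called, and with the offset for GC content and transcript length SLC2A1 was at 1.99 and PFKFB3 at -0.59, both called, and NDRG1 was not called (0.54). Over the other settings the PFKFB3 value with P. umbellatus ran from -0.59 to -0.22, and it was not called with no filter on low counts (-0.22, adjusted p = 0.0655) or without A549 P. umbellatus replicate 2 (-0.24). NDRG1 was also not called with only the groups compared (0.77) or without A549 control replicate 3, A549 P. umbellatus replicate 1 or Huh7 control replicate 1 or 2 (0.73 to 0.76). The HK2 value rests on 14 to 51 estimated reads in each A549 control and P. chinensis library, and its p-value on a spread estimated over both lines together. Groups of 3 are too small for a test of single outlying samples.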

How the results depend on the processing

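Numbers of the 10 genes called are given as higher and lower. Not every move is listed, and moves from 3 to 2 are not given as counts. The share of all genes called also moved with the setting, so a count that moved is not by itself a change in these genes. In Huh7 with P. chinensis that share was 20.9% in the main fit and 32.5% with the offset. With B. chinense there it was 1.28% and 6.12%, and with P. umbellatus 37.0% and 19.7%. In A549 with P. chinensis (1 and 3) there were 2 higher with DESeq2, no filter or the filter at 50 counts and 1 lower with only the groups compared. The LDHA fall with P. chinensis also lost its call with RLE factors, no filter, the filter at 50 counts, the replicate block and the GC and length offset. B. chinense there (2 and 3) lost the PDK1 call with only the groups compared. With P. umbellatus (2 and 1) the GC and length offset gave 3 higher and 2 lower, and DESeq2 and voom weights 3 higher. P. chinensis against the other herbs (0 and 1) gave 1 higher with the filter at 50 counts. In Huh7 with P. chinensis (2 and 2) there were 4 lower with only the groups compared or the offset and 5 with voom weights. B. chinense (1 and 0) gave 0 higher with no filter and 2 with only the groups compared or voom weights. P. umbellatus (2 and 1) gave 1 higher with RLE factors, the filter at 50 counts, voom weights or the offset, and 0 and 0 with only the groups compared. P. chinensis against the other herbs (2 and 3) gave 1 higher with only the groups compared and 3 with the filter at 50 counts, voom weights, the replicate block or the offset. Between the lines, the P. chinensis difference (2 and 1) gave 3 higher with the offset or voom weights and 1 higher with the filter at 50 counts, which leaves HK2 and EGLN3 untested in the model of 24 libraries, the B. chinense difference (0 and 1) 1 higher with only the groups compared, and the P. umbellatus difference (2 and 1) 1 higher with only the groups compared, 2 lower with DESeq2, RLE factors or the filter at 50 counts and 0 lower with no filter.

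Leaving out 1 library at a time gave, in A549, 1 to 2 higher and 1 to 3 lower with P. chinensis, 2 to 2 and 2 to 3 with B. chinense, 2 to 2 and 1 to 1 with P. umbellatus and 0 to 0 and 0 to 1 for P. chinensis against the others. In Huh7 it gave 1 to 2 and 2 to 4, 0 to 2 and 0 to 0, 0 to 2 and 1 to 1, and 1 to 3 and 1 to 3 in the same order. Between the lines it gave 2 to 2 and 1 to 1 (P. chinensis), 0 to 0 and 1 to 1 (B. chinense), 1 to 2 and 0 to 3 (P. umbellatus), and 5 to 6 and 3 to 4 for the controls.

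Replicates that share a number did not deviate together (in A549 r = -0.0632 to 0.049 and in Huh7 -0.0294 to 0.0408 over 18 pairs each, 0 over 0.1). Whether they shared a culture is not given in the labels, and r over all genes tested cannot show a small shared effect. A replicate block gave 0 lower for P. chinensis against the others in A549, 0 higher for B. chinense in Huh7 and 2 lower for the P. umbellatus difference between the lines.

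A value called before or after turned its sign in 2 cases, each with the GC and length offset. HIF1A in Huh7 with P. umbellatus went from 0.31 to -0.02, and the P. umbellatus difference of LDHA between the lines from -0.04 to 0.21, called only with the offset. Of the 944 gene values under the 8 other settings, 884 kept their side of the threshold, and of 1920 with 1 library left out, 1824 did. Not all of these kept their direction. The 884 include 34 values, and the 1824 include 83, that changed sign without being called in either fit. Other causes were not tested. Depth limits EGLN3 in Huh7 and HK2 in A549, and intervals here cover neither dose nor time of exposure.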
